A study of Homo sapiens with 40 samples.

Results

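The comparison described here was heregulin (HRG) against epidermal growth factor (EGF) after 12 h in BT474R, a trastuzumab-resistant line derived from the HER2-amplified luminal breast cancer line BT474. It was read from the 2 HRG-BT474R and the 2 EGF-BT474R libraries at 12 h, chosen by their labels, out of 40 RNA-seq libraries in the series. BT474R is BT474 clone 5, a single clone obtained after growth in trastuzumab for several weeks. The study stimulated both lines with EGF, HRG or vehicle (water) for 1, 12 or 24 h and collected a baseline before stimulation, each in duplicate. All cells had first been starved for 14 to 16 h in medium with 0.1% serum. EGF was given at 50 ng/mL and HRG at 10 ng/mL, so the ligand and its dose cannot be told apart. Each treatment was done in duplicate on plated cells, and no source used here says that duplicates came from separate passages or days, so p-values measure only the spread between these libraries, which may be technical. These are bulk samples, in which fewer cells of a type and less RNA per cell cannot be told apart.

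EGF binds EGFR, whereas HRG binds HER3 and HER4, and each of these receptors can pair with HER2 to activate the MAPK and PI3K-AKT pathways. Interferon-stimulated genes are classically induced by complexes of STAT factors with IRF9, which bind the interferon-stimulated response element (ISRE), by STAT dimers at gamma-activated sites (GAS), and by IRF1. Their products degrade viral RNA, block viral entry and load peptides onto MHC class I.

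The 4 libraries held 22667790 to 28523735 gene counts, and the 2 vehicle libraries at 12 h held 22697167 and 30024539. Levels are given as CPM (counts scaled to the size of the library, by edgeR) after TMM scaling, for replicates 1 and 2 in that order. The libraries expressed markers of the labelled cell type. ERBB2, the gene of HER2, was measured at 9054 and 9339.5 CPM with HRG and 9957 and 10178 CPM with EGF, and the luminal keratin KRT8 at 1534 and 1630.5 CPM with HRG and 1847 and 1779 CPM with EGF. ERBB2 did not pass the test between the ligands (log2 -0.13 ± 0.05, edgeR adjusted p = 0.262). Of the 10 luminal markers 1 passed, GATA3, which was higher with HRG. The defining leukocyte markers PTPRC and CD3E were below the filter on low counts, and the 12 leukocyte markers summed to 2.801 to 3.07 CPM with HRG and 3.75 to 3.79 CPM with EGF. The 6 myoepithelial markers summed to 3.86 to 4.08 CPM with HRG and 5.05 to 6.13 CPM with EGF. The endothelial markers summed to 17.8 to 19.7 CPM with HRG and 18.7 to 22.5 CPM with EGF. The 8 fibroblast markers summed to 179.9 to 185.3 CPM with HRG and 186.5 to 193.7 CPM with EGF, but unevenly. Of the 8, 4 were below the filter on low counts. COL1A2 had 2 counts over the HRG libraries and 2 over the EGF libraries, and PDGFRA had 2 and 5. The largest count of a single fibroblast marker in a library at 12 h was 5304, so the sum does not describe the list as a whole. The part of these markers in the results was not tested. None of the tested leukocyte, fibroblast, endothelial or myoepithelial markers passed the test between the ligands.

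Of 24287 genes tested, 278 were higher with EGF (1.14%) and 67 were higher with HRG (0.276%) at a Benjamini-Hochberg adjusted p under 0.05 in edgeR's quasi-likelihood test. Each fold change is written as HRG minus EGF on the log2 scale with its SE, so negative values are higher with EGF. The median log2 fold change was -0.50 among genes higher with EGF, 0.50 among those higher with HRG and close to zero over all tested genes (-0.00146). The EGF side was led by interferon-response genes. Against vehicle, 25 of 40 antiviral effectors rose with EGF (6.85% of all tested genes rose and 5.13% fell), while with HRG 1 rose and 1 fell (2.38% and 1.73% of all tested genes). Growth-factor feedback, early-response and epithelial genes were also higher with EGF, and many of those named here rose over vehicle with both ligands. The HRG side held GATA3 and GREB1 from the list of luminal regulators, which fell with both ligands, and RNAs that are not usually polyadenylated. The 2 groups of libraries did not overlap for any of the 345 called genes, against 44.1% of all tested genes that did not overlap. With 1 library left out, fewer genes were called, namely 116 without HRG replicate 1, 150 without HRG replicate 2, 104 without EGF replicate 1 and 198 without EGF replicate 2.

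**Figure D1:**
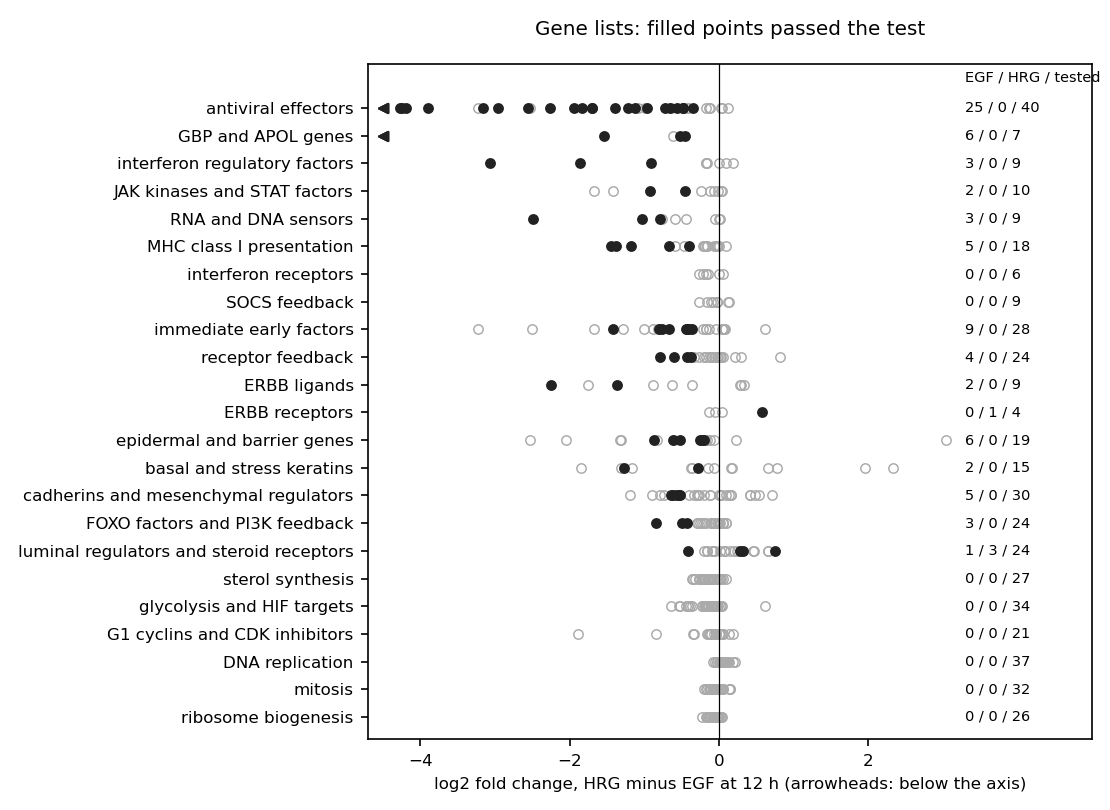
Each point is a tested gene of a list, placed by its log2 fold change (HRG minus EGF at 12 h in BT474R), and filled where edgeR's test passed. Numbers on the right give the members higher with EGF, higher with HRG and tested. The interferon-response lists extend to the left, with 25 of 40 antiviral effectors higher with EGF. The sterol synthesis, glycolysis and cell-cycle lists gave no call. Left of zero lay 30 of 34 glycolysis and HIF targets, 21 of 27 sterol synthesis genes and 4 of 37 DNA replication genes.

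The interferon response was followed from ligands to effectors. None of the 22 interferon genes passed the filter on low counts, and the most that any of them reached in the 6 libraries at 12 h was 1 count. All 6 interferon receptor genes were tested and none was called between the ligands at 12 h. Against vehicle, 2 of the 6 rose with EGF and 0 with HRG, where 6.85% and 2.38% of all tested genes rose. At 24 h, 1 of the 6 was higher with EGF than with HRG, against 3.32% of all tested genes. IFNAR1, a chain of the type I receptor, was at 80.4 and 80.3 CPM with HRG and 91.3 and 89.3 CPM with EGF (log2 -0.17 ± 0.06, edgeR adjusted p = 0.288). IFNGR1, a chain of the type II receptor, was at 20.2 and 19.8 CPM with HRG and 23.3 and 24.7 CPM with EGF (log2 -0.26 ± 0.08, edgeR adjusted p = 0.158). In both genes the EGF libraries lay above the HRG libraries without passing the test. The 9 SOCS feedback genes gave no call either, with a median log2 fold change of -0.03.

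Among the transcription factors, 3 of 9 interferon regulatory factors (IRF1, IRF9 and IRF7) and 2 of 10 JAK and STAT genes, STAT2 among them, were higher with EGF, and none was higher with HRG. These are 33.3% and 20% of the tested members, against 1.14% of all tested genes. IRF1, a direct activator of interferon-response promoters, was at 1.42 and 2.25 CPM with vehicle, 2.001 and 1.91 CPM with HRG and 19.1 and 13.6 CPM with EGF. The EGF libraries stood 8.38-fold above HRG (log2 -3.07 ± 0.23, edgeR adjusted p = 3.13e-08), and HRG did not differ detectably from vehicle (log2 0.06 ± 0.31, edgeR adjusted p = 0.965). IRF9, a DNA-binding partner of STAT2, was at 4.01 and 4.04 CPM with vehicle, 3.54 and 3.65 CPM with HRG and 13.1 and 13.1 CPM with EGF in its main row (log2 -1.86 ± 0.12, edgeR adjusted p = 2.5e-09). IRF9 is listed in 2 copies that split its reads, and both were called. The copies summed to 13.97 and 13.06 CPM with vehicle, 13.1 and 13.6 CPM with HRG and 47.1 and 44.98 CPM with EGF (log2 -1.78 ± 0.10, edgeR adjusted p = 1.1e-09). IRF1, and IRF9 in its main row, kept their calls whichever of the 4 libraries was left out.

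STAT2 and IRF7 showed smaller differences. STAT2 was at 55.1 and 54.6 CPM with vehicle, 44.3 and 41.3 CPM with HRG and 60.8 and 56.5 CPM with EGF (log2 -0.46 ± 0.08, edgeR adjusted p = 0.00441). EGF did not separate from vehicle here (log2 0.10 ± 0.08, edgeR adjusted p = 0.543), and HRG lay below it (log2 -0.36 ± 0.08, edgeR adjusted p = 0.0157). IRF7, an amplifier of the type I response, was at 1.93 and 2.59 CPM with HRG and 4.597 and 3.83 CPM with EGF (log2 -0.90 ± 0.21, edgeR adjusted p = 0.0297), a call that was lost whichever library was left out (log2 -1.12 to -0.71). STAT2 kept its call in 2 of those 4 fits. The IRF7 values are from its main row, and its 2 copies were also called as a sum (log2 -0.93 ± 0.17, edgeR adjusted p = 0.00373). Of 9 RNA and DNA sensors, DDX58 (RIG-I), IFIH1 (MDA5) and NLRC5 were higher with EGF (33.3%, against 1.14% of all tested genes). IFIH1, a sensor of long double-stranded RNA, was at 12.2 and 11.9 CPM with vehicle, 11.6 and 11.2 CPM with HRG and 24.5 and 21.9 CPM with EGF (log2 -1.03 ± 0.10, edgeR adjusted p = 1.51e-06). NLRC5, the transactivator of MHC class I genes, was at 0.948 and 0.992 with vehicle, 1.11 and 0.957 with HRG and 6.89 and 4.74 CPM with EGF (log2 -2.50 ± 0.21, edgeR adjusted p = 2.08e-07).

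Of 45 antiviral effectors, 40 passed the filter, 25 of these were higher with EGF (62.5%, against 1.14% of all tested genes) and none was higher with HRG. The median log2 fold change of the 40 was -1.17, or -1.10 with genes at 0 placed at their bound, against -0.00146 over all tested genes. The filter asked for at least 1 count in at least 50% of the 20 BT474R libraries, of which 6 had EGF, so no member could pass through the EGF libraries alone. The members that did not pass were IFI16, IFI44L, XAF1, SAMD9L and UBE2L6. The largest differences were in genes barely detected with HRG. IFIT3, which binds and stabilizes the RNA-binding protein IFIT1, had no count in either HRG library, 0.0431 and 0.0331 CPM with vehicle and 6.09 and 5.23 CPM with EGF. Against the detection limit of 3 counts per library this was at least 53.01-fold higher with EGF (edgeR adjusted p = 2.5e-09). OAS2, a sensor enzyme that activates RNase L, had 1 count over both HRG libraries and 122 over both EGF libraries, a ratio of 142 with an exact 95% counting interval of 25.01 to 5653 (edgeR adjusted p = 6.34e-07). BST2, the tetherin that holds budding virions at the cell surface, had 3 and 96 counts, a ratio of 37.2 (12.4 to 184, edgeR adjusted p = 0.000164). These intervals cover counting error only.

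Other effectors had a measurable level with HRG. OAS1, of the same enzyme family as OAS2, was at 0.948 and 0.926 CPM with vehicle, 0.7504 and 1.099 CPM with HRG and 7.66 and 6.72 CPM with EGF, 7.75-fold higher with EGF (log2 -2.95 ± 0.24, edgeR adjusted p = 1.18e-07). IFIT2 was at 0.388 and 0.198 with vehicle, 0.179 and 0.177 with HRG and 2.72 and 2.75 CPM with EGF (log2 -3.90 ± 0.37, edgeR adjusted p = 9.48e-07). HERC6, a HECT-domain ubiquitin ligase gene, was at 1.03 and 0.728 with vehicle, 0.5003 and 0.532 with HRG and 2.83 and 3.34 CPM with EGF (log2 -2.56 ± 0.31, edgeR adjusted p = 3.31e-05). In all 3 the EGF libraries lay above every vehicle and HRG library. PARP14, an ADP-ribosyltransferase, was at 11.8 and 11.3 with vehicle, 8.61 and 9.01 with HRG and 37.6 and 29.7 CPM with EGF (log2 -1.94 ± 0.17, edgeR adjusted p = 4.55e-07), and PARP10, of the same family, at 0.604 and 0.562 with vehicle, 0.715 and 0.496 with HRG and 2.68 and 2.300 CPM with EGF (log2 -2.04 ± 0.25, edgeR adjusted p = 4.5e-05). IFI6, a small membrane protein gene of the type I response, was at 13.6 and 12.5 with vehicle, 11.9 and 12.4 with HRG and 34.7 and 28.8 CPM with EGF (log2 -1.39 ± 0.10, edgeR adjusted p = 1.31e-08).

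Not every effector followed. MX1, a dynamin-like antiviral GTPase that is usually strongly interferon-induced, was at 1.64 and 1.49 CPM with vehicle, 2.14 and 1.42 CPM with HRG and 1.95 and 1.49 CPM with EGF, with overlapping libraries (edgeR adjusted p = 0.986). ISG15, the ubiquitin-like modifier, was at 0.858 and 0.496 CPM with HRG and 1.42 and 1.26 CPM with EGF (log2 -0.99 ± 0.34, edgeR adjusted p = 0.248). Some calls rested on all 4 libraries. ISG20, RSAD2 and TRIM21 were not called whichever library was left out, and IFITM3, IFIT5 and TRIM22 were called in 1 of those 4 fits. IFITM3 shares most of its sequence with IFITM1 and IFITM2, so its reads are uncertain. BATF2, an interferon-inducible AP-1 family factor outside the effector list, had 3 counts over the HRG libraries and 136 over the EGF libraries, a ratio of 52.8 (17.7 to 259, edgeR adjusted p = 9.48e-07).

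**Figure D2:**
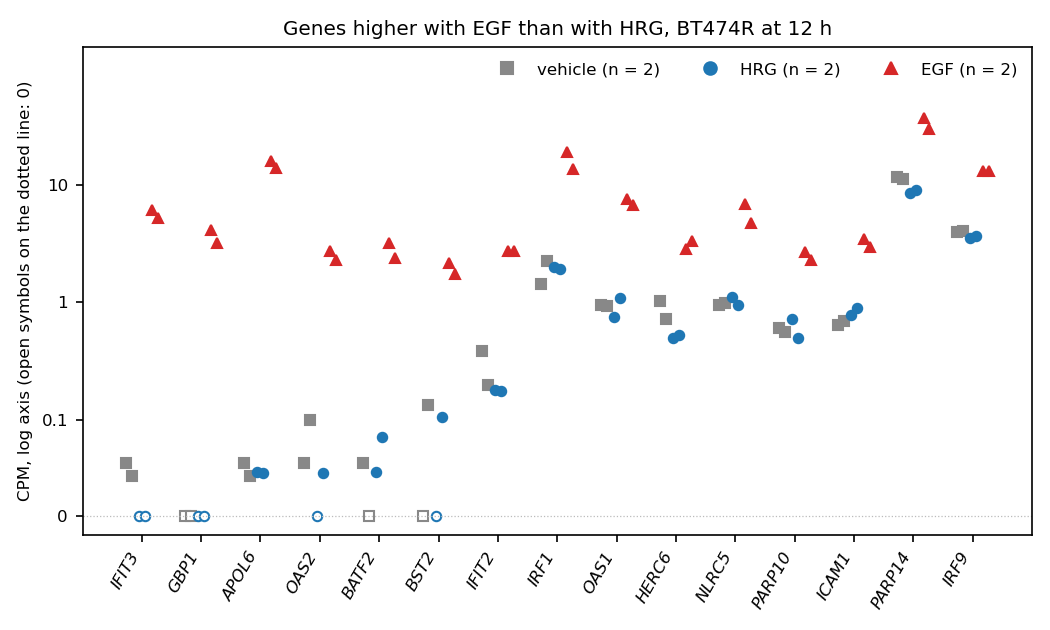
Level in CPM (log axis) of the 15 named genes higher with EGF, 1 symbol per library for vehicle, HRG and EGF in BT474R at 12 h. Open symbols on the dotted line stand for no count. The 2 EGF libraries lie above both HRG libraries in all 15 genes, for example 19.1 and 13.6 against 2.00 and 1.91 CPM for IRF1.

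Guanylate-binding protein (GBP) and apolipoprotein L (APOL) genes, which act against intracellular pathogens, gave 6 calls among 7 tested members of 13, all higher with EGF (85.7% of those tested, against 1.14% of all tested genes). The other 6 members did not pass the filter on low counts. Counts in EGF libraries helped members to pass it, so the share holds for the tested members only. GBP1 had no count in the vehicle or HRG libraries and 4.14 and 3.202 CPM with EGF, at least 34.4-fold higher (edgeR adjusted p = 5.27e-08). APOL6 had 1 count in each HRG library and 726 over the EGF libraries, a ratio of 422 with an exact 95% counting interval of 117 to 3495 (edgeR adjusted p = 2.02e-10). APOL1 had no count with vehicle or HRG and 1.23 and 0.902 CPM with EGF, at least 9.96-fold higher (edgeR adjusted p = 0.000169). GBP2 differed from these in having a level with every treatment, at 25.5 and 24.5 CPM with vehicle, 32.8 and 30.5 CPM with HRG and 47.2 and 43.2 CPM with EGF (log2 -0.52 ± 0.09, edgeR adjusted p = 0.0018). It rose over vehicle with both ligands. APOL2 lost its call whichever library was left out, and GBP2 kept it in 2 of those 4 fits.

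The promoters of the leading interferon-response genes are shown because the response is defined by short elements in them. They are the 250 bases before the RefSeq transcription start (GRCh38.p14), 5′ to 3′ on the strand of the gene, for the 5 such genes with the largest differences that had an entry. Of 12 named interferon-response genes, 8 had one, and APOL6, OAS2, IFIT2 and NLRC5 did not. Capitals mark matches to the ISRE letters (GAAA, any 2 bases, GAAA) or to the GAS letters TTCNNNGAA on either strand. IFIT3 has 2 starts, and each window held 2 ISRE matches. GBP1 held 1 ISRE match, BST2 held 2 overlapping ISRE matches, the first of which also overlaps 1 of its 2 GAS matches, and IRF1 and OAS1 held 1 GAS match each. The ISRE letters ask for exactly 2 bases between the GAAA repeats and miss elements with another spacing. Near its end the OAS1 window holds GAAA repeats with 1 base between them, which are not marked.
IFIT3 (chr10:89327747-89327996, plus strand): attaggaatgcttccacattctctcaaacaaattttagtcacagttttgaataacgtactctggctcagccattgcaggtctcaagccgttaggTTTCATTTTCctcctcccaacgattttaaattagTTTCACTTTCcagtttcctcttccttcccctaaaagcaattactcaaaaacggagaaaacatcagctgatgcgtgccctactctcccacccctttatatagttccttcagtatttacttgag
IFIT3 (chr10:89332279-89332528, plus strand): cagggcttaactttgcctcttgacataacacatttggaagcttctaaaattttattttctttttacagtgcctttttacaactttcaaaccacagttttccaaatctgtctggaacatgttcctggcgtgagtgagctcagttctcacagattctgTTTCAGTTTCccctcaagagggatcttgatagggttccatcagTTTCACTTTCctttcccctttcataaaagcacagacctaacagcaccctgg
GBP1 (chr1:89065209-89065458, minus strand): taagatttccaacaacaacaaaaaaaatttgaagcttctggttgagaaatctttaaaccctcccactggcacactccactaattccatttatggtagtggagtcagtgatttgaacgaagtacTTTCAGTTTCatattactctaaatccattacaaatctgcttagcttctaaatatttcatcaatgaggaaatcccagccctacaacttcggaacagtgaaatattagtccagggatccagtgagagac
BST2 (chr19:17405631-17405880, minus strand): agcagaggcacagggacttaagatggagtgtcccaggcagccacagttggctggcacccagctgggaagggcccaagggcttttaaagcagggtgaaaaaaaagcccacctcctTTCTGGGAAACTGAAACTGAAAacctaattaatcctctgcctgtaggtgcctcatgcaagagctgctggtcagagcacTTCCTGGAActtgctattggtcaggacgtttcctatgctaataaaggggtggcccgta
IRF1 (chr5:132490774-132491023, minus strand): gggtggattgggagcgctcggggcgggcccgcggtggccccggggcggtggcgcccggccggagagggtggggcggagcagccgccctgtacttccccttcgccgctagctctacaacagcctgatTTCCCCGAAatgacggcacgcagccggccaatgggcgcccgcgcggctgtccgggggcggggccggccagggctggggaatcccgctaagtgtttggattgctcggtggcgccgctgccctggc
OAS1 (chr12:112906712-112906961, plus strand): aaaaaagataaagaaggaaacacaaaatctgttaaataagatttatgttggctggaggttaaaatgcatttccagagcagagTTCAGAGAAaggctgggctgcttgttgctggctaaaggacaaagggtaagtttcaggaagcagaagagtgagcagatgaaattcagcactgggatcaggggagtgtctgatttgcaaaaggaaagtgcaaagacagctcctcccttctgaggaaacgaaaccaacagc
The ISRE letters occurred in the windows of 3.71% of all genes in the table and in 3.35% of tested genes. They occurred in 20 of 32 interferon-response genes higher with EGF (62.5%), in 12 of 35 such genes that were not called (34.3%) and in 7 of 147 other genes higher with EGF (4.76%). The GAS letters occurred in 8.09% of all genes and in 7.49% of tested genes. Among the sets above they occurred in 10 of the same 32 (31.2%), 5 of the same 35 (14.3%) and 9 of the other 147 (6.12%). The lists were chosen as interferon-response genes, so these shares are no test of the response. A match describes the letters of the window and not binding.

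Antigen presentation by MHC class I changed in part. Of 18 tested members, TAP1, HLA-E, HLA-B, B2M and ERAP2 were higher with EGF (27.8%, against 1.14% of all tested genes) and none was higher with HRG. The table lists several of these genes in near-identical copies, so their reads are split and uncertain, and the sums over the copies are given. TAP1, a subunit of the peptide transporter, summed to 12.4 and 13.8 CPM with vehicle, 9.62 and 9.401 CPM with HRG and 28.5 and 24.6 CPM with EGF (log2 -1.48 ± 0.09, edgeR adjusted p = 3.03e-09). HLA-E, a ligand of the NK cell receptor NKG2A, summed to 33.1 and 32.9 with vehicle, 31.9 and 33.2 with HRG and 67.2 and 57.5 CPM with EGF (log2 -0.94 ± 0.07, edgeR adjusted p = 2.53e-08). B2M, the invariant light chain, summed to 32.5 and 33.2 with vehicle, 34.6 and 30.9 with HRG and 44.7 and 41.7 CPM with EGF (log2 -0.40 ± 0.08, edgeR adjusted p = 0.00663). TAP2, the other transporter subunit, was not called in its main row but was called as a sum (log2 -0.66 ± 0.13, edgeR adjusted p = 0.00663). PSMB9, whose main row did not pass the filter, was also called as a sum (edgeR adjusted p = 1.12e-05). It summed to 0.143 and 0.0355 CPM with HRG and 1.53 and 1.67 CPM with EGF. HLA-C was not called in its main row or as a sum (log2 -0.18 ± 0.05, edgeR adjusted p = 0.0623), although 1 of its 7 rows was. None of the 8 tested MHC class II genes was called. In the single main rows, leaving out 1 library cost B2M its call in all 4 fits, HLA-B in 3, and HLA-E and ERAP2 in 2.

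Receptor feedback genes gave 4 calls among 24 tested (16.7%, against 1.14% of all tested genes), all higher with EGF, and 3 of them rose over vehicle with both ligands. DUSP6, the phosphatase that inactivates ERK, was at 91.04 and 93.2 CPM with vehicle, 279 and 300.1 CPM with HRG and 509 and 491 CPM with EGF (log2 -0.79 ± 0.10, edgeR adjusted p = 5.56e-05). SPRY4, a Sprouty inhibitor of RAS-MAPK signaling, was at 49.3 and 45.8 with vehicle, 104 and 105 with HRG and 139 and 142 CPM with EGF (log2 -0.42 ± 0.09, edgeR adjusted p = 0.017). ERRFI1 (MIG6), an inhibitor of the EGFR kinase, was at 25.8 and 24.3 with vehicle, 35.7 and 37.1 with HRG and 58.4 and 51.6 CPM with EGF (log2 -0.60 ± 0.08, edgeR adjusted p = 0.000198). In these 3 genes vehicle, HRG and EGF formed separate steps, and both ligands differed from vehicle (edgeR adjusted p for HRG of 4.16e-09, 2.06e-07 and 0.000507, from comparisons that share the HRG libraries). DUSP5 was also called between the ligands (log2 -0.38 ± 0.07, edgeR adjusted p = 0.00629) and did not pass over vehicle with HRG (edgeR adjusted p = 0.126). DUSP6 and ERRFI1 kept their calls whichever library was left out. SPRY4 lost its call in all 4 such fits (log2 -0.44 to -0.41), and DUSP5 in 2 of those fits.

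Of 28 immediate early genes, FOS, JUN, JUNB, IER2, IER3, KLF2, KLF6, MYC and NR4A2 were higher with EGF (32.1%, against 1.14% of all tested genes). None was higher with HRG, and the median log2 fold change was -0.42 over all 28. KLF2, a zinc-finger factor, was at 16.7 and 15.5 CPM with vehicle, 27.9 and 28.8 CPM with HRG and 46.4 and 50.1 CPM with EGF (log2 -0.77 ± 0.09, edgeR adjusted p = 3.8e-05). MYC was at 2.46 and 3.01 with vehicle, 6.396 and 6.42 with HRG and 11.8 and 10.6 CPM with EGF (log2 -0.81 ± 0.16, edgeR adjusted p = 0.00806). JUN, a subunit of AP-1, was at 55.7 and 61.9 with vehicle, 58.9 and 58.2 with HRG and 82.2 and 76.3 CPM with EGF (log2 -0.44 ± 0.08, edgeR adjusted p = 0.00446), and HRG did not differ detectably from vehicle (edgeR adjusted p = 0.993). FOS, its usual partner, had HRG values of 1.39 and 2.55 CPM around the vehicle values of 0.991 and 1.82 CPM, below 6.24 and 4.19 CPM with EGF (log2 -1.41 ± 0.31, edgeR adjusted p = 0.0193). KLF2 kept its call whichever library was left out, KLF6 in 3 of 4 fits, and FOS and IER3 in 2. JUN, JUNB, MYC and NR4A2 kept theirs in 1 fit and IER2 in none. EGR1, the classic early target of ERK, was at 3.502 and 4.08 CPM with HRG and 7.85 and 5.41 CPM with EGF and was not called (log2 -0.82 ± 0.22, edgeR adjusted p = 0.0764).

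Among 9 tested ligands of the ERBB family, the EGFR ligand genes AREG and HBEGF were higher with EGF (22.2%, against 1.14% of all tested genes). AREG (amphiregulin) was at 0.345 and 0.562 CPM with vehicle, 1.29 and 1.28 CPM with HRG and 3.56 and 3.07 CPM with EGF (log2 -1.37 ± 0.26, edgeR adjusted p = 0.00551). HBEGF was at 0.129 and 0.0992 with vehicle, 0.214 and 0.177 with HRG and 1.11 and 0.767 CPM with EGF (log2 -2.25 ± 0.51, edgeR adjusted p = 0.0212). Both were called in 1 of the 4 fits without a library. Of the 4 receptors, EGFR (log2 -0.05 ± 0.09, edgeR adjusted p = 0.944) and ERBB3 (log2 0.04 ± 0.06, edgeR adjusted p = 0.902) were not called, and ERBB4, the HRG receptor HER4, was higher with HRG. ERBB4 was at 12.2 and 12.2 CPM with vehicle, 6.47 and 6.17 CPM with HRG and 4.52 and 3.88 CPM with EGF (log2 0.58 ± 0.13, edgeR adjusted p = 0.0225), a call lost whichever library was left out (log2 0.48 to 0.70).

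Several epithelial and adhesion genes rose over vehicle with both ligands and stood higher with EGF. KRT16, a keratin of activated keratinocytes, was at 1.21 and 1.59 CPM with vehicle, 6.32 and 7.09 CPM with HRG and 16.97 and 15.5 CPM with EGF (log2 -1.27 ± 0.16, edgeR adjusted p = 5.24e-05). It was 1 of 2 calls among 15 basal and stress keratins (13.3%, against 1.14% of all tested genes), with KRT80 (log2 -0.28 ± 0.06, edgeR adjusted p = 0.017). AQP3, a water and glycerol channel, was at 19.3 and 22.5 with vehicle, 74.2 and 67.6 with HRG and 139.9 and 119 CPM with EGF (log2 -0.87 ± 0.15, edgeR adjusted p = 0.00163), and it was among 6 calls of 19 epidermal and barrier genes (31.6%), all higher with EGF, with S100A9, S100A14, S100P, CLDN4 and CLDN7. Of 30 cadherins and mesenchymal regulators, 5 (16.7%) were higher with EGF, with VIM, ITGB4, ITGB6 and LAMB3 among them. ITGB4, the integrin of hemidesmosomes, was at 159.6 and 154 with vehicle, 282 and 297 with HRG and 467 and 436 CPM with EGF (log2 -0.64 ± 0.06, edgeR adjusted p = 7.69e-07). VIM encodes vimentin, and the transcription factors of mesenchymal transition on that list were not called. Against vehicle, KRT16, KRT80, AQP3, S100A9, S100A14, ITGB4, ITGB6 and LAMB3 passed the test with both ligands, and S100P, CLDN4, CLDN7 and VIM passed with EGF and not with HRG. ITGB4, ITGB6, KRT16 and S100P kept their calls whichever library was left out, and AQP3 in 2 of 4 fits. VIM was called in 1 such fit, and LAMB3, KRT80, S100A9, S100A14, CLDN4 and CLDN7 in none.

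Single members of other lists were higher with EGF as well. IRS2, the insulin receptor substrate that FOXO factors induce, was at 6.595 and 7.31 CPM with vehicle, 11.5 and 13.8 CPM with HRG and 22.6 and 22.6 CPM with EGF (log2 -0.84 ± 0.10, edgeR adjusted p = 3.14e-05). IRS1 and DEPTOR, an mTOR inhibitor, were the other calls among 24 FOXO factors and PI3K feedback genes (12.5%, against 1.14% of all tested genes). GDF15, a stress-induced cytokine, was at 8.15 and 13.6 with vehicle, 31.1 and 49.1 with HRG and 140.5 and 117 CPM with EGF (log2 -1.68 ± 0.29, edgeR adjusted p = 0.0025), with a wide spread between the HRG libraries and a call in 2 of 4 fits without a library. ICAM1, the adhesion ligand of leukocyte integrins, was at 0.647 and 0.695 with vehicle, 0.786 and 0.887 with HRG and 3.49 and 2.98 CPM with EGF (log2 -1.95 ± 0.25, edgeR adjusted p = 8.71e-05), and it was the single call among 22 NF-kB subunits and feedback genes. CX3CL1 (fractalkine), CXCL8 and CXCR4 were higher with EGF among 15 tested chemokines and cytokines (20%, against 1.14% of all tested genes). CX3CL1 was at 49.1 and 52.6 with vehicle, 60.4 and 58.1 with HRG and 103 and 99.5 CPM with EGF (log2 -0.77 ± 0.08, edgeR adjusted p = 1.36e-06). ID1, a target of BMP signaling, was at 3.02 and 3.11 with vehicle, 5.396 and 5.0 with HRG and 10.04 and 9.38 CPM with EGF (log2 -0.90 ± 0.15, edgeR adjusted p = 0.00109), and SULF2, an extracellular heparan 6-O-endosulfatase, at 43.5 and 43.5 with vehicle, 88.9 and 92.9 with HRG and 125 and 126 CPM with EGF (log2 -0.47 ± 0.08, edgeR adjusted p = 0.00169). Against vehicle, IRS2, GDF15, ID1 and SULF2 rose with both ligands, while ICAM1 and CX3CL1 passed with EGF and not with HRG. IRS2, ICAM1, CX3CL1 and ID1 kept their calls whichever library was left out, SULF2 in 3 of 4 fits, CXCL8, CXCR4 and DEPTOR in 2 and IRS1 in none. Further single calls higher with EGF, each called in at most 1 such fit, were TNFRSF10B among 18 death receptors and caspases, PMAIP1 (NOXA) of 16 BCL2 family genes and DGAT2 of 23 fatty acid synthesis genes.

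**Figure D3:**
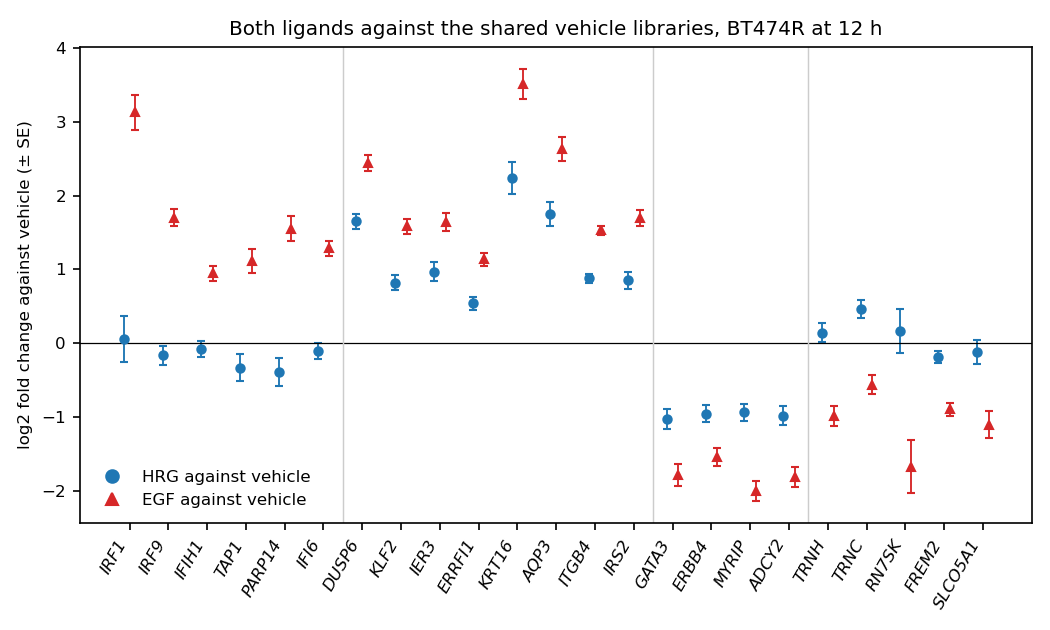
log2 fold change of HRG and of EGF against the 2 vehicle libraries they share, with SE, in BT474R at 12 h. From left to right the blocks are interferon-response genes, genes that rose with both ligands, genes that fell with both, and genes near vehicle with HRG and below it with EGF. DUSP6 was 1.65 over vehicle with HRG and 2.44 with EGF.

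Some regulators of luminal identity stood higher with HRG than with EGF. Their list of 24 gave 3 calls higher with HRG (12.5%, against 0.276% of all tested genes), with GATA3 and GREB1 among them, and 1 higher with EGF, while the other 20 were not called. The median log2 fold change of the 24 was 0.08. Against vehicle 6 fell with HRG and 7 with EGF, where 1.73% and 5.13% of all tested genes fell. GATA3, a master regulator of luminal cells, was at 48.3 and 41.1 CPM with vehicle, 22.9 and 20.9 CPM with HRG and 12.2 and 13.8 CPM with EGF (log2 0.76 ± 0.15, edgeR adjusted p = 0.00803). GREB1, an estrogen receptor target and cofactor, was at 76.8 and 71.6 with vehicle, 58.6 and 58.3 with HRG and 49.1 and 46.6 CPM with EGF (log2 0.29 ± 0.06, edgeR adjusted p = 0.0103). In both the vehicle libraries were highest and the EGF libraries lowest, with no overlap. ESR1, the estrogen receptor gene, had the same order at 99.1 and 88.4 with vehicle, 48.1 and 49.4 with HRG and 38.04 and 40.7 CPM with EGF but was not called between the ligands (log2 0.31 ± 0.10, edgeR adjusted p = 0.226). ELF3, an epithelial ETS factor, went the other way, at 169.8 and 190.1 CPM with HRG and 248 and 232 CPM with EGF (log2 -0.42 ± 0.10, edgeR adjusted p = 0.0264). GATA3 kept its call in 2 of 4 fits without a library, and GREB1 and ELF3 in none.

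Among called protein-coding genes with a mean of at least 1 CPM, those with the largest differences on the HRG side were MYRIP, SLCO5A1, ADCY2 and ABCC8, together with the histone gene H2BC15. MYRIP, a linker of RAB27A vesicles to myosin, was at 13.97 and 13.4 CPM with vehicle, 7.79 and 6.56 CPM with HRG and 3.33 and 3.52 CPM with EGF (log2 1.07 ± 0.14, edgeR adjusted p = 0.000139). ADCY2, an adenylyl cyclase, was at 10.2 and 8.76 with vehicle, 5.36 and 4.26 with HRG and 2.68 and 2.71 CPM with EGF (log2 0.83 ± 0.15, edgeR adjusted p = 0.00271), and ABCC8, the sulfonylurea receptor subunit of potassium channels, at 7.03 and 5.56 with vehicle, 4.43 and 4.08 with HRG and 2.53 and 2.39 CPM with EGF (log2 0.79 ± 0.18, edgeR adjusted p = 0.0254). These 3 fell with both ligands against vehicle. SLCO5A1, of the organic anion transporter family, was at 7.85 and 9.62 CPM with vehicle, 7.93 and 8.26 CPM with HRG and 4.41 and 3.74 CPM with EGF (log2 0.98 ± 0.18, edgeR adjusted p = 0.00415). MYRIP kept its call whichever library was left out, ADCY2 and SLCO5A1 in 2 of 4 fits, and ABCC8 and H2BC15 in none.

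Of the 67 genes higher with HRG, 18 were RNAs that are not polyadenylated in the usual way, namely 11 mitochondrial tRNAs, the mitochondrial 12S rRNA RNR1, the nuclear rRNA rows RNA45SN1 and RNA45SN2, RN7SK, MIR12136 and the histone genes H2BC15 and H2BC18. These were 11 of 22 tested mitochondrial tRNAs, 1 of 2 mitochondrial rRNAs, 2 of 7 nuclear rRNA rows, 2 of 59 histone genes, 1 of 287 snRNAs, snoRNAs and related RNAs and 1 of 214 miRNAs, against 0.276% of all tested genes. In the class of RN7SK the median log2 fold change was -0.16, with 116 of 287 members above zero, and the summed histone genes overlapped, at 547 and 592 CPM with HRG and 586 and 610.1 CPM with EGF. None of the 278 genes higher with EGF fell in these classes. The libraries were made with an mRNA kit, which captures poly(A) tails. All 22 mitochondrial tRNAs were tested, 11 were higher with HRG and none with EGF, and their summed level was 2021 and 2122 CPM with vehicle, 2035 and 2140.3 CPM with HRG and 1181 and 1235 CPM with EGF. The other 14 BT474R libraries lay between 1196 and 2056 CPM. The order of the ligands did not hold at the other times. The sum was 1196 and 1726 CPM with HRG and 1609 and 1780.1 CPM with EGF at 1 h, where the libraries overlapped, and 1512 and 1727 CPM with HRG and 1952 and 2056 CPM with EGF at 24 h, where EGF lay above HRG. TRNS1, the tRNA for serine (UCN), was at 706 and 705 CPM with vehicle, 644 and 658 CPM with HRG and 187 and 138 CPM with EGF (log2 2.00 ± 0.50, edgeR adjusted p = 0.0474). TRNH, the tRNA for histidine, was at 32.3 and 36.02 with vehicle, 38.3 and 37.4 with HRG and 17.3 and 17.3 CPM with EGF (log2 1.13 ± 0.14, edgeR adjusted p = 2.99e-05). RN7SK, the nuclear RNA that holds the elongation factor P-TEFb inactive, was at 19.4 and 23.4 with vehicle, 23.2 and 25.1 with HRG and 8.08 and 5.32 CPM with EGF (log2 1.83 ± 0.35, edgeR adjusted p = 0.00573). At 24 h RN7SK overlapped, at 23.3 and 25.2 CPM with HRG and 22.9 and 25.5 CPM with EGF.

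TRNS1 and MIR12136 moved together and share sequence. The RefSeq hairpin of MIR12136, an annotated nuclear microRNA, is shown with the mature miR-12136 in capitals because all 71 bases of it occur on the minus strand of the mitochondrial genome at chrM:7444-7514 (GRCh38), across TRNS1, so their reads cannot be told apart.
MIR12136 hairpin: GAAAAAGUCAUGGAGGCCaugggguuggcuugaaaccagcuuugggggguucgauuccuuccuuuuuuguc
MIR12136 was at 340.4 and 351 CPM with vehicle, 365 and 359 CPM with HRG and 108 and 80.7 CPM with EGF (log2 1.94 ± 0.46, edgeR adjusted p = 0.0297). TRNS1, MIR12136 and H2BC15 lost their calls whichever library was left out, RN7SK, TRNS2 and RNA45SN2 kept theirs in 1 of 4 fits, and TRNH, TRNC, TRNR and TRND kept theirs in all 4. RNA45SN1 and RNA45SN2 are near-identical, and so are many H2B genes, so their reads are uncertain. With the test run on protein-coding rows only, 59 genes were higher with HRG and 265 with EGF. Whether library preparation had a part in these differences was not tested.

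**Figure D4:**
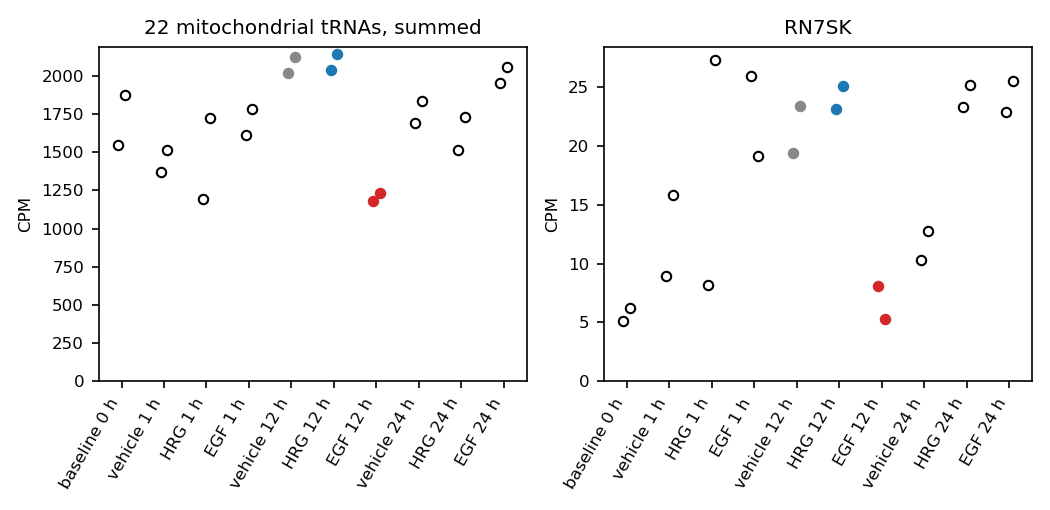
Summed level of the 22 mitochondrial tRNAs (left) and level of RN7SK (right) in CPM in each of the 20 BT474R libraries, 1 point per library, with the 12 h libraries filled in gray (vehicle), blue (HRG) and red (EGF). Open points are the other 14 libraries. The EGF libraries are the lowest of the 12 h libraries in both panels, at 1181 and 1235 CPM for the tRNAs, and RN7SK also ranges widely among the open points.

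Several lists gave no call between the ligands. These were sterol synthesis (27 tested, median log2 -0.15), glycolysis and HIF targets (34, -0.15), G1 cyclins and CDK inhibitors (21, -0.05), DNA replication (37, 0.07), mitosis (32, -0.02), ribosome biogenesis (26, -0.06), mucins (10, -0.02) and metallothioneins (5, -0.03). The absence of a call does not show that the ligands acted alike. DNA replication genes rose over vehicle in 14 of 37 members with HRG and 10 with EGF, and mitotic genes in 9 of 32 with HRG and 17 with EGF, from comparisons that share the vehicle libraries. Sterol synthesis genes rose over vehicle in 1 of 27 members with HRG and 14 with EGF, and glycolysis and HIF targets in 1 of 34 with HRG and 12 with EGF. The direct comparison called none of them, though 21 of the 27 and 30 of the 34 lay on the EGF side. Of the DNA replication genes, 4 of 37 did. Of all tested genes, 2.38% rose over vehicle with HRG and 6.85% with EGF. Counted in both directions, 1000 differed from vehicle with HRG (4.12%) and 2910 with EGF (12%).

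Earlier and later, the same direct comparison was made in the same fit. At 1 h, 12 genes were higher with EGF (0.0494%) and none was higher with HRG. At an unadjusted edgeR p under 0.05, 419 genes lay on the HRG side and 267 on the EGF side, of 24287 tested. Together these are fewer than that threshold lets through when no gene differs. The 12 were IRF1, JUN, KLF2, DUSP1, EGR1, KLF6, RASD1, JUNB, RHOB, ZFP36, IER2 and MYLIP, mostly immediate early genes. IRF1 was already apart, at 1.97 and 3.55 CPM with vehicle, 2.63 and 2.83 CPM with HRG and 14.8 and 11.04 CPM with EGF (log2 -2.24 ± 0.22, edgeR adjusted p = 1.58e-05). EGR1 rose with both ligands at 1 h, from 22.01 and 17.7 CPM to 184 and 137 CPM with HRG and 260.1 and 278 CPM with EGF (log2 -0.74 ± 0.12, edgeR adjusted p = 0.00786). No antiviral effector was called at 1 h.

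At 24 h, 5.18% of tested genes were called, and 807 genes were higher with EGF (3.32%) and 451 with HRG (1.86%), and 27 of 40 antiviral effectors were higher with EGF. These calls rest on the spread shared across the 20 BT474R libraries, since edgeR on the 4 libraries at 24 h alone called 0 genes, with 852 higher with HRG and 1270 with EGF at an unadjusted p under 0.05. The change between the times was tested as the HRG minus EGF difference at 12 h less that at 24 h, which gave 31 higher genes (0.128%) and 3 lower (0.0124%). No antiviral effector, interferon regulatory factor or STAT gene was among them. The higher genes did include 1 of 7 tested GBP and APOL genes and 2 of 18 MHC class I genes, with HLA-B among these. IRF1 differed by -2.81 ± 0.24 at 24 h and IRF9 by -1.58 ± 0.12, with differences between the times of -0.26 ± 0.36 and -0.28 ± 0.17 (edgeR adjusted p = 0.946 and 0.847). DUSP6 showed a smaller ligand difference at 12 h than at 24 h, when it was at 97.8 and 147 CPM with HRG and 511 and 506 CPM with EGF (difference 1.27 ± 0.14, edgeR adjusted p = 0.000109).

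In parental BT474 at 12 h, 2.17% of tested genes were called. Of these, 306 were higher with HRG (1.22%) and 239 with EGF (0.95%), and 1 of 43 tested antiviral effectors was called, higher with EGF. In its main row IRF9 was at 4.34 and 3.93 CPM with HRG and 5.39 and 4.05 CPM with EGF there (log2 -0.20 ± 0.17, edgeR adjusted p = 0.691), and IRF1 was at 6.52 and 5.14 CPM with HRG and 5.48 and 5.08 CPM with EGF (edgeR adjusted p = 0.784). The difference between the lines was tested as an interaction and called 574 genes (2.33%), 385 lower (1.56%) and 189 higher (0.767%) in BT474R. It included 19 of 42 tested antiviral effectors, all lower, and 3 of 9 interferon regulatory factors, with IRF9 among them (difference -1.66 ± 0.21, edgeR adjusted p = 2.39e-06). It also included 8 of 28 immediate early genes and 4 of 24 receptor feedback genes, all lower. Some genes had opposite calls in the lines. AREG was higher with HRG in BT474, at 22.2 and 24.1 CPM against 12.3 and 13.2 CPM with EGF (log2 0.87 ± 0.10, edgeR adjusted p = 1.84e-07), and so was KRT16 (log2 0.93 ± 0.18, edgeR adjusted p = 0.00161). MYRIP and ERBB4 were higher with EGF in BT474 (log2 -0.65 ± 0.11 and -0.41 ± 0.09, edgeR adjusted p = 0.000247 and 0.00397). GATA3 was at 421 and 405 CPM with HRG and 446 and 446 CPM with EGF in BT474 and was not called between the ligands there (edgeR adjusted p = 0.128).

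**Figure D5:**
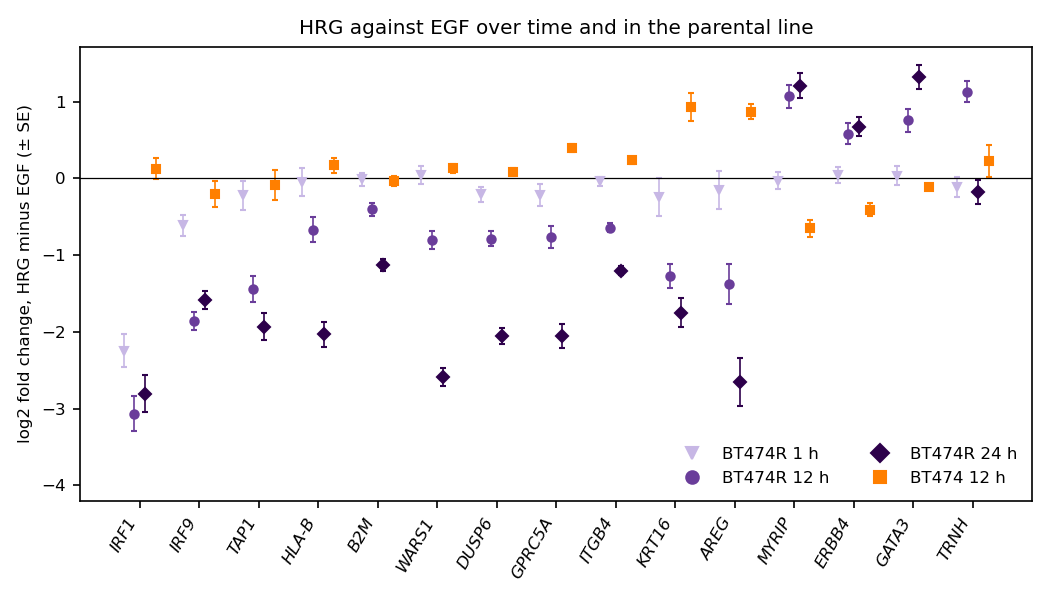
log2 fold change (HRG minus EGF) with SE for 15 genes in BT474R at 1, 12 and 24 h and in BT474 at 12 h. IRF1 is below zero at all 3 times in BT474R and near zero in BT474, while KRT16, AREG, MYRIP and ERBB4 lie on opposite sides of zero in the 2 lines at 12 h.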

How the data were processed

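RNA was measured by RNA-seq in BT474 and BT474R cells after stimulation with EGF, HRG or vehicle, and groups were taken from the sample labels. The authors deposited 1 table of raw counts per gene for all 40 libraries, made after Trim Galore 0.6.6 trimming and counted with featureCounts on GRCh38.p13 per the submitters' processing notes. The annotation release, strand setting and treatment of multimapping reads are not given in the sources used here.

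Counts were used as deposited in R 4.3.3. Genes were kept where 50% or more of the libraries in the fit had a count of 1 or higher. All 20 BT474R libraries, or all 40 libraries for the difference between lines, entered 1 fit with 1 term per treatment and time, by edgeR 4.0.16 (TMM scaling, glmQLFit, glmQLFTest), with Benjamini-Hochberg adjustment over all tested genes and a threshold of 0.05. Errors are SE of the fitted log2 fold change. Folds against groups without counts used a floor of 3 counts per library. Intervals for groups with 1 to 3 counts are exact 95% intervals. Of 44584 rows, 9125 had no count and 5078 repeat a name with a number added. The 13 mitochondrial mRNAs are not analysed here, and some members of the lists are counted but not reported by name.

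The genes, lists and tests were chosen with earlier results of these data known. Named genes were the 15 per direction with the largest fold change among called genes with a mean of at least 1 CPM and separate libraries, members of the lists, and 5 per direction for each difference between lines or times. Genes outside this rule, among them the 1 h calls, the cell line markers, the genes of the other observations and the RNA classes, were named after their values were seen. On data simulated for the 12 h comparison with 23929 genes, the test called 60% of genes changed by 0.5 on the log2 scale, 92% of those changed by 1 and all of those changed by 2 or 3. The changed genes were drawn only from genes with a mean of at least 1 CPM, so these rates do not cover genes below it. Alternatives were DESeq2 1.42.0 and its size factors, other filters, thinned depth, summed copy rows, other sets of libraries, replicate blocks and each library left out. A fit on protein-coding rows was chosen after seeing the data.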

Additional observations from a re-analysis of the deposited data

Results flagged for a closer look

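The HRG minus EGF difference at 12 h differed between the lines for 574 genes, 385 lower and 189 higher in BT474R than in BT474. The genes named from the lower side were interferon-response genes. IFIT3, GBP1, APOL6 and IFITM3 were at or under the detection limit with HRG in BT474R, so their differences are given by edgeR's adjusted p alone, which was 1.01e-06, 0.000184, 1.89e-07 and 0.00699. In BT474 none of the 4 was called between the ligands, and IFITM3 stood at 9.38 and 9.600 CPM with HRG and 11.6 and 13.03 CPM with EGF, against 0.0357 and 0 CPM with HRG and 0.536 and 0.316 CPM with EGF in BT474R. IFIT2 differed by -3.51 (edgeR adjusted p = 8.75e-05). IFITM3 lost this call without HRG replicate 2 or EGF replicate 1 of BT474R.

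On the higher side, THBS3-AS1 differed by 1.99, RHBDL3 by 1.87, SPINK8 by 1.86, IGSF21 by 1.78 and MYRIP by 1.72 on the log2 scale. IGSF21, an immunoglobulin superfamily gene, was at 1.998 and 2.27 CPM with HRG and 4.71 and 4.34 CPM with EGF in BT474 and at 2.07 and 2.23 CPM with HRG and 1.302 and 1.35 CPM with EGF in BT474R. THBS3-AS1 is antisense to THBS3, and no source used here states that counting used strand. RHBDL3 lost its call in 6 of the 8 fits without a library, and THBS3-AS1 and SPINK8 lost theirs in 2 and 1.

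The same difference in BT474R at 12 h less that at 24 h was called for 31 higher genes and 3 lower. WARS1 (1.78), HLA-B (1.36), GPRC5A (1.29) and DUSP6 (1.27) were higher with EGF at both times, by less at 12 h. WARS1, a tryptophanyl-tRNA synthetase that interferon-gamma induces, went from 71.9 and 72.5 CPM with HRG and 133 and 119.8 CPM with EGF at 12 h to 43.1 and 62.9 CPM with HRG and 338 and 299 CPM with EGF at 24 h. TRNH (1.31) was higher with HRG at 12 h and was at 15.2 and 13.8 CPM with HRG and 13.3 and 19.3 CPM with EGF at 24 h, where the libraries overlapped. ELF5 (-0.69), LMO3 (-0.58) and CCNB1 (-0.50) were called higher with HRG at 24 h and were not called between the ligands at 12 h.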

How the results depend on the processing

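With 1 library left out, between 104 and 198 genes were called for HRG against EGF at 12 h in BT474R in place of 345, between 85 and 172 of them higher with EGF and between 16 and 27 higher with HRG. The lone remaining library was then assumed to vary like the other groups. The corresponding ranges were 652 to 2030 genes at 24 h, 5 to 12 at 1 h, 150 to 343 in BT474, 267 to 399 for the difference between the lines and 18 to 227 for the difference between the times. Without the filter on low counts, 628 genes were called at 12 h in BT474R, 447 higher with EGF and 181 higher with HRG, with 48 at 1 h and 207 between the times. With only the libraries compared in the fit, 185 genes were higher with EGF at 12 h, 0 were called at 24 h (edgeR; 852 genes were higher with HRG and 1270 with EGF at an unadjusted p under 0.05 in that fit, and DESeq2 on all BT474R libraries called 1081) and 1242 were called in BT474. With both lines in 1 fit, 137 genes were higher with HRG at 12 h, 22 were called at 1 h, 259 in BT474 and 94 between the times. DESeq2 called 60 genes between the times. The causes of these shifts were not tested. No called named gene changed direction, and 49 of 135 such genes were called under every alternative, the left-out libraries included. Among genes not called, the log2 fold change of EGFR (-0.05) ranged from -0.11 to 0.021 with 1 library left out (-0.11 without HRG replicate 2, 0.021 without HRG replicate 1). That of MX1 (0.04) was -0.074 at thinned depth and ranged from -0.29 to 0.31 with 1 library left out, with -0.13 without EGF replicate 2. The fit on protein-coding rows, chosen after seeing the data, called 324 genes, 300 of them among the 345.

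Replicate numbers showed no clear pairing at 12 h in BT474R, and the other times and BT474 were not examined for it. The deviations of same-numbered libraries correlated across 14792 genes at -0.059 for HRG and EGF, 0.098 for HRG and vehicle and -0.0019 for EGF and vehicle. With a replicate block, 364 genes were called at 12 h in BT474R (291 higher with EGF and 73 higher with HRG), 1328 at 24 h, 13 at 1 h, 640 in BT474, 614 between the lines and 46 between the times. With a replicate block within each time point the counts were 445 (346 and 99), 1424, 17, 906, 704 and 67. Of the 345 genes, 339 were shared with the first and 336 with the second, and the named calls lost under either block were CLDN7 and TNFRSF10B. With 2 libraries per group, a difference of 0.5 on the log2 scale was often missed in simulated data, and genes near 1 count per library set bounds and not fold changes.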

Other observations

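Several genes outside the lists, chosen after their values were seen, also differed between the ligands. LGALS9 (galectin-9) was at 1.94 and 2.25 CPM with vehicle, 4.04 and 4.29 CPM with HRG and 12.5 and 11.5 CPM with EGF (log2 -1.53 ± 0.15, edgeR adjusted p = 9.84e-07). PARP12 and HELZ2, both known interferon-stimulated genes, did not differ detectably from vehicle with HRG and were higher with EGF than with HRG (log2 -0.83 ± 0.12, edgeR adjusted p = 0.00034, and log2 -0.63 ± 0.06, edgeR adjusted p = 2.65e-06). PADI1, a peptidylarginine deiminase of the epidermis, was at 1.47 and 1.39 with vehicle, 4.57 and 6.06 with HRG and 16.6 and 12.99 CPM with EGF (log2 -1.48 ± 0.27, edgeR adjusted p = 0.0031).

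On the HRG side, SOX2, the stem cell factor, was at 39.1 and 31.3 CPM with vehicle, 18.3 and 18.3 CPM with HRG and 10.5 and 11.01 CPM with EGF (log2 0.76 ± 0.16, edgeR adjusted p = 0.0148). MAP2K6, the kinase that activates p38, was at 25.9 and 23.6 with vehicle, 13.7 and 12.9 with HRG and 7.55 and 9.56 CPM with EGF (log2 0.64 ± 0.13, edgeR adjusted p = 0.00642). The matrix genes COL12A1 and FREM2 did not pass against vehicle with HRG and were lower with EGF. COL12A1 was at 28.2 and 25.3 CPM with HRG and 16.9 and 15.7 CPM with EGF (log2 0.71 ± 0.14, edgeR adjusted p = 0.00601), and FREM2 at 36.1 and 33.4 CPM with HRG and 21.1 and 21.3 CPM with EGF (log2 0.71 ± 0.08, edgeR adjusted p = 2.34e-05). LGALS9, PARP12, HELZ2 and FREM2 kept their calls whichever of the 4 libraries was left out, PADI1 in 2 of 4 fits, MAP2K6 in 2, COL12A1 in 1 and SOX2 in none.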
